A study of Homo sapiens with 16 samples.

Results

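The EGF receptor family comprises 4 receptor tyrosine kinases, EGFR, ERBB2, ERBB3 and ERBB4, and the ligands considered with them here are AREG, EREG, HBEGF, TGFA, BTC and EPGN. These 10 genes were taken from the 60676 rows of a read count table by matching Ensembl identifiers to symbols, and all 10 were found. The ligands are made as membrane-anchored precursors that proteases release from the cell surface. Binding of a ligand joins receptors into dimers, whose phosphorylated tails recruit adaptors that switch on the RAS-ERK and PI3K pathways. In colorectal cancer the family is known as the target of EGFR antibodies, and AREG and EREG are widely studied as markers of EGFR-dependent tumours.

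RNA-seq was performed on cells labelled HCT116, an established human colorectal carcinoma line. The 8 groups crossed an shRNA, shCTL or shNELFE, with DMSO, EPZ-5676, HMBA or both compounds, at 2 libraries per group and 16 in all, so every cell carried an shRNA. NELFE is a subunit of the negative elongation factor that holds RNA polymerase II near promoters, EPZ-5676 inhibits the histone methyltransferase DOT1L, and HMBA (hexamethylene bisacetamide) frees the elongation kinase P-TEFb from its HEXIM1 complex. The labels give no dose, time, clone or culture, so p-values here reflect how much these libraries varied, and that variation may be purely technical.

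The tests used 9 of the 16 libraries: replicate 2 of every group and replicate 1 of shNELFE with both compounds. Their log2 levels correlated with each other at r = 0.936 to 0.991 over 36 pairs, against 0.735 to 0.805 over the 63 pairs between them and the 7 other replicate 1 libraries. In the 9 libraries NELFE stood at no more than 21.6 CPM under shNELFE and at 67.9 to 81.0 CPM under shCTL, where CPM is the usual count relative to sequencing depth, here on totals scaled by TMM. HEXIM1, which HMBA is known to induce, stood at 338 to 385 CPM with HMBA and at 66.8 to 81.6 CPM without it. Of the 7 other libraries, 5 went against their labels: the 3 labelled shNELFE held 81.2 to 146 CPM of NELFE, and the 3 labelled with HMBA, 1 of them shNELFE, held 46.5 to 76.1 CPM of HEXIM1. In the libraries labelled shCTL with DMSO and shCTL with EPZ-5676, neither gene went against the label (NELFE at 244 and 99.5 CPM, HEXIM1 at 66.3 and 44.8), and they stood apart by their correlation with the 9. Totals ran from 13428893 to 17867037 counts in the 9 libraries and from 19626522 to 21319666 in the 7. Of colon epithelial markers, KRT8 (2230 to 4529 CPM) and EPCAM (293 to 596 CPM) were abundant in the 9, VIL1 was at 0 to 0.200 CPM and KRT20 at 1.25 to 4.93 CPM.

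Of the ligand genes, 4 lie in a row on chromosome 4 of hg38: EPGN (4:74308473-74315307), EREG (4:74365143-74388751), AREG (4:74445134-74455009) and BTC (4:74744759-74794686, on the minus strand). The span is 486.2 kb, GENCODE release 29 places 0 other protein-coding genes in it, and the gap between EREG and AREG is 56.4 kb. The promoters of EREG and AREG are shown because these neighbours changed by very different amounts, and that of HBEGF because it moved the other way. The bases come from RefSeq on GRCh38.p14, in which 9 of the 10 members matched (not ERBB3), end before the annotated gene, and are given 5′ to 3′ with matches to the 6 motifs searched in capitals. The windows are chr4:74364895-74365142 (plus strand), chr4:74444886-74445133 (plus strand) and chr5:140346632-140346853 (minus strand).
EREG: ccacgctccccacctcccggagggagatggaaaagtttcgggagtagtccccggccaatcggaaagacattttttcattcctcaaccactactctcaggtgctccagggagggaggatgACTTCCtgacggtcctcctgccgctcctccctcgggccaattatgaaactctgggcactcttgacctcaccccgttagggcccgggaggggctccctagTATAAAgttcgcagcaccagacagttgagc
AREG: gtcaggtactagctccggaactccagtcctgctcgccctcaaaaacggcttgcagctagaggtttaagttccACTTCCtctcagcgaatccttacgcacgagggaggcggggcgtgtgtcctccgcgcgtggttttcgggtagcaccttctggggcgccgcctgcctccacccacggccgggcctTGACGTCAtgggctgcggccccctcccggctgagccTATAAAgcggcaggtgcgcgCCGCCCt
HBEGF: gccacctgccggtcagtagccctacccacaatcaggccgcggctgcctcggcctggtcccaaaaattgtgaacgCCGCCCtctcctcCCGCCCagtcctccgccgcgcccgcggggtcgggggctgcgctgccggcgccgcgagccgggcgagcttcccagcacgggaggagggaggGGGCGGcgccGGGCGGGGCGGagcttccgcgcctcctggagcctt
The motifs, searched on both strands in the 250 bases before the RefSeq start, were TATAAA (the TATA box), GGGCGG (known to bind SP1), TGANTCA (known to bind AP-1), TGACGTCA (known to bind CREB), CACGTG (an E-box) and GGAAGT (a core that ETS factors bind). TATAAA, found in 10.7% of 35116 such windows, began at -32 in EREG, at -29 in AREG and at -29 in EPGN, and it also occurs before the second start of EGFR given with that gene. GGAAGT, found in 19.5% of windows, was present once in EREG (-131) and once in AREG (-178), and TGACGTCA, found in 1.6%, was present in AREG at -65. HBEGF held 5 matches to GGGCGG, of which those at -63 and -58 share a base, and 42.6% of windows held that motif. AREG also held 1, at -9, and EREG held none. Elsewhere, EGFR held 2 and TGFA held 3 before their first starts, and ERBB4 held 1. CACGTG (6.3% of windows) matched in none of the members' windows, and TGANTCA (6.6%) matched in none of these 3. Such matches describe the letters of the window and were not tested as binding sites.

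HMBA lowered EREG more than any other member and raised HBEGF, so that the ligand mRNAs changed in opposite directions. EREG encodes epiregulin, a ligand of EGFR and ERBB4. Without HMBA it stood at 743 CPM in shCTL with DMSO, 878 in shNELFE with DMSO, 447 in shCTL with EPZ-5676 and 562 in shNELFE with EPZ-5676. With HMBA it stood at 40.6 CPM in shCTL and 66.9 in shNELFE, and with both compounds at 28.9 in shCTL and at 36.9 and 36.8 in the 2 shNELFE libraries. The lowest library without HMBA was therefore far above the highest with it. The fitted change was -3.95 on the log2 scale (SE 0.09, 15.4-fold lower, edgeR adjusted p = 4.35e-09), and 43 of the 14912 genes tested had a more negative value. Within the 4 pairs of groups that differ only in HMBA, the log2 ratio was -4.19, -3.71, -3.95 and -3.93. In bulk libraries such as these, fewer cells that express a gene and less of its RNA per cell cannot be told apart.

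AREG encodes amphiregulin, a ligand of EGFR. It stood at 129 CPM in shCTL and 119 in shNELFE with DMSO, and at 117 in shCTL and 118 in shNELFE with EPZ-5676. With HMBA it stood at 51.2 CPM in shCTL and 55.8 in shNELFE, and with both compounds at 81.9 in shCTL and at 77.7 and 69.8 in shNELFE. The 2 sets of libraries did not overlap, and within the HMBA set the 3 libraries with EPZ-5676 were the highest. The fitted change was -0.88 (SE 0.12, 1.85-fold lower, edgeR adjusted p = 9.97e-05), smaller than that of its neighbour EREG.

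HBEGF (5:140332843-140346631, minus strand) encodes heparin-binding EGF-like growth factor, a ligand of EGFR and ERBB4. Its levels without HMBA were 14.3 CPM in shCTL and 13.3 in shNELFE with DMSO, and 20.9 and 19.2 with EPZ-5676. With HMBA they were 62.3 CPM in shCTL and 71.3 in shNELFE, and with both compounds 74.7 in shCTL and 96.6 and 67.6 in shNELFE. All 5 libraries with HMBA were above all 4 without it. The fitted change was 2.11 (SE 0.13, 4.33-fold higher, edgeR adjusted p = 2.53e-07), and 625 genes had a more positive value.

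TGFA (2:70447280-70554193, minus strand) encodes transforming growth factor alpha, the ligand named for its ability to transform cultured cells through EGFR. It ran from 53.1 to 57.0 CPM in the 4 libraries without HMBA and from 73.5 to 95.2 CPM in the 5 with it. The fitted change was 0.65 (SE 0.09, edgeR adjusted p = 0.000114), with no overlap between the sets. BTC, which encodes betacellulin, ran from 3.78 to 4.63 CPM without HMBA and from 4.10 to 5.17 with it. These ranges overlapped, and BTC did not pass the test (0.25, SE 0.14, 95% interval -0.06 to 0.57, edgeR adjusted p = 0.143). EPGN, which encodes epigen, was at 0 to 6 counts per library and had too few counts to be tested. It had 19 counts in all with HMBA and 9 without, a ratio of 1.95 per count of TMM-scaled library total. The exact 95% interval of that ratio, 0.839 to 4.88, covers counting error only.

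**Figure D1:**
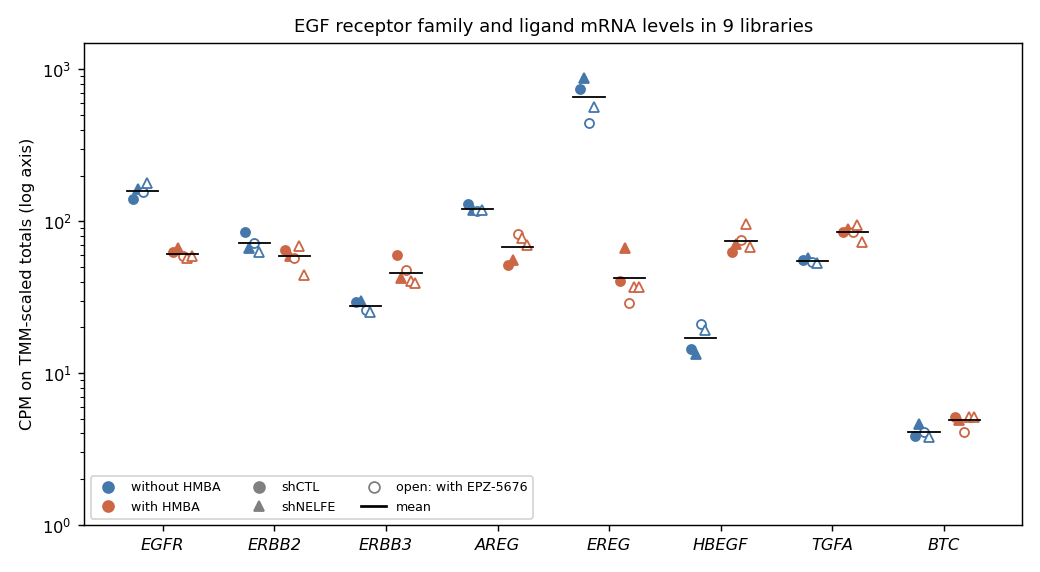
Levels of the 8 members with enough counts to be tested, as CPM on a log axis, in the 9 libraries used. Each point is a library, colour marks HMBA, shape marks the shRNA, open points had EPZ-5676 and bars are means. EREG and EGFR lie lower and HBEGF higher with HMBA, with no overlap.

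Levels were divided by the length of the merged exons of all annotated transcripts, and on that scale the order of the ligand mRNAs changed with HMBA. Which transcripts were expressed was not examined, so an order between genes holds for these lengths only. Without HMBA, EREG led in each of the 4 libraries and held 46.5 to 63.1% of the summed ligand level per kb, and AREG held 29.7 to 42.0%. TGFA followed with 4.72 to 6.47%, HBEGF with 1.81 to 4.12% and BTC with 0.608 to 0.863%. With HMBA, AREG held 38.0 to 50.6%, HBEGF 26.7% ± 1.93 (SD, n = 5), TGFA 16.8 to 22.0%, EREG 5.14 to 13.1% and BTC 1.48 to 2.36%. EREG thus passed from the first place to the fourth, and HBEGF from the fourth to the second. In levels per kb, EREG (78.2 to 154 CPM per kb) and AREG (70.7 to 78.3) overlapped slightly without HMBA, and AREG (31.1 to 49.7) and HBEGF (20.6 to 32.0) overlapped slightly with it. The summed ligand level was 168 to 243 CPM per kb without HMBA and 77.8 to 107 with it. These shares and sums are descriptions of levels, not tests.

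**Figure D2:**
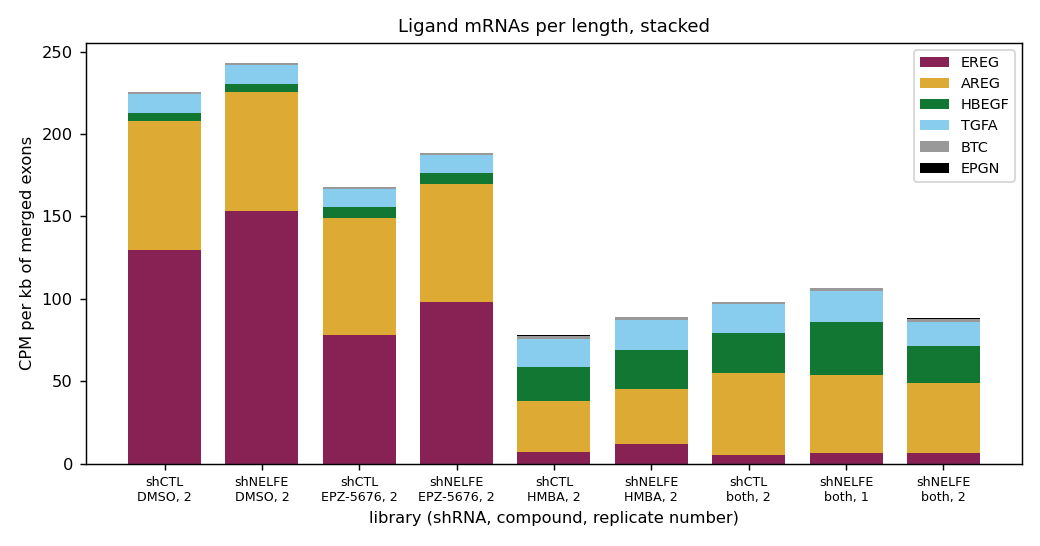
Stacked levels of the 6 ligand mRNAs, in CPM per kb of merged exons, in each of the 9 libraries named by shRNA, compound and replicate number. EREG fills 46.5 to 63.1% of the bar in the 4 libraries without HMBA and 5.14 to 13.1% in the 5 with it.

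Among the receptors, HMBA lowered EGFR and raised ERBB3. EGFR (7:55019021-55211628) is the receptor to which all 6 of the ligands bind. It stood at 141 CPM in shCTL and 163 in shNELFE with DMSO, and at 155 and 179 with EPZ-5676. With HMBA it stood at 62.5 CPM in shCTL and 66.4 in shNELFE, and with both compounds at 59.1 in shCTL and 57.3 and 58.7 in shNELFE. The sets did not overlap, and the 5 libraries with HMBA lay close together, with a mean of 60.8 CPM ± 3.67 (SD, n = 5). The fitted change was -1.40 (SE 0.09, 2.63-fold lower, edgeR adjusted p = 3e-07). The promoter of EGFR is shown because, of the 3 receptors tested, EGFR had the largest change. Its window, chr7:55018767-55019016 on the plus strand, holds 73.6% G and C, 2 matches to GGGCGG (in capitals, both on the opposite strand, at -204 and -36) and none to TATAAA. A second RefSeq start lies inside the gene, and the window before it, not printed, holds TATAAA at -146 and -36 and TGANTCA at -232 and -136.
EGFR: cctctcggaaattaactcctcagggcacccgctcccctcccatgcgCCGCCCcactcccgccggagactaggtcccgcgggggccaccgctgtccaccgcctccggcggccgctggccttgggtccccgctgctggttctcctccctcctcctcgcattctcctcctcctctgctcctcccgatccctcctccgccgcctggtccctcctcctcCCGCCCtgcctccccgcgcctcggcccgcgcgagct

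ERBB3 (12:56076799-56103505) encodes a neuregulin receptor with an impaired kinase that signals through its partners. Its levels were 29.5 CPM in shCTL and 29.8 in shNELFE with DMSO, and 26.0 and 25.2 with EPZ-5676. With HMBA they were 59.7 CPM in shCTL and 42.1 in shNELFE, and with both compounds 48.0 in shCTL and 40.5 and 39.1 in shNELFE. All libraries with HMBA were higher than those without, by 0.76 on the log2 scale (SE 0.10, 1.69-fold, edgeR adjusted p = 6.16e-05). ERBB3 shares exon bases with AC034102.2 on the same strand, which had at most 349 counts in a library, and how reads in the shared bases were assigned is not given in the sources used here.

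ERBB2 (17:39687914-39730426) encodes the receptor that has no known ligand and serves as the partner of the others. It ran from 62.5 to 84.7 CPM without HMBA and from 44.2 to 69.1 CPM with it. The sets overlapped, and the change of -0.25 (SE 0.12, 95% interval -0.52 to 0.03) did not pass the test (edgeR adjusted p = 0.106). All 4 pairs of group means were lower with HMBA. In 1 pair the shNELFE libraries with both compounds were at 69.1 (replicate 1) and 44.2 CPM (replicate 2), against 62.5 with EPZ-5676 alone. The change passed in the 8 libraries numbered 2 (-0.35, edgeR adjusted p = 0.000391), in the 9 with a replicate block (-0.35, edgeR adjusted p = 0.000356) and with unscaled totals (-0.52, edgeR adjusted p = 0.000885). Exons of ERBB2 overlap those of MIEN1 and PGAP3 on the opposite strand, which reached 1135 and 263 counts, and the strand setting of the counts is not given in the sources used here.

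ERBB4 (2:211375717-212538841, minus strand) encodes a receptor of neuregulins and of several EGF-like ligands. It had 0 counts in the 4 libraries without HMBA, which allows up to 0.0468 CPM over the 4, and 2, 2, 1, 4 and 4 counts in the 5 with it. Taking 3 counts, summed over those 4 libraries, as the limit of detection, it was at least 3.99-fold higher with HMBA. That bound leaves out the counting error of the 13 counts with HMBA. The exact 95% interval of the count ratio, on TMM-scaled totals, began at 2.81. ERBB4 had too few counts to be tested. Some other genes with few counts were higher with HMBA too. The median change of all genes was 0.133 without the filter on low counts, against 0.023 with it. The 5 blood markers, also too scarce to be tested, summed to 0.5714 to 1.398 CPM with HMBA and 0.06301 to 0.1799 without. NRG2 went the other way, at a mean of 0.385 CPM with HMBA and 0.634 without. Whether the rise is particular to ERBB4 was not tested. Per kb of merged exons, the receptors kept the order EGFR (11.2 to 14.3 CPM per kb), ERBB2 (6.05 to 8.21) and ERBB3 (2.79 to 3.30) without HMBA, with no overlap of neighbours. This order rests on lengths of 12.5 kb for EGFR, 10.3 kb for ERBB2 and 9.04 kb for ERBB3, and shorter expressed transcripts could change it. With HMBA the ranges of EGFR (4.57 to 5.30), ERBB2 (4.29 to 6.69) and ERBB3 (4.32 to 6.61) all overlapped. The summed receptor level was 22.2 to 23.2 CPM per kb without HMBA and 13.3 to 17.9 with it.

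Counted over the 8 members tested, 3 rose with HMBA (HBEGF, ERBB3 and TGFA) and 3 fell (EREG, EGFR and AREG), by edgeR at an adjusted p under 0.05. Over all genes tested, 31.0% were called higher and 32.0% lower, so the share of members called is near that of all genes. The share of all genes without overlap between the libraries with and without HMBA is not given here. Lack of overlap therefore describes the levels of these members only. At 2-fold or more, HBEGF was higher and EREG and EGFR were lower, against 11.4% of all genes higher and 13.6% lower. The median change was 0.25 for the 5 ligands tested and -0.25 for the 3 receptors tested, beside 0.02 for all genes. These medians are the values of BTC and ERBB2, which did not pass the test, and do not describe a shared direction of either class. With unscaled library totals the median of all genes moved to -0.24 and 30.2% of the calls were higher, against 49.3% with TMM, and the 6 members called kept their directions. When all 16 libraries entered the fit, 0 members were called for HMBA (edgeR; 1641 of 15853 genes had an unadjusted p under 0.05, and 0 genes were called), EREG at -3.67 with an adjusted p = 0.584. Summed mesenchymal markers were at 61.9 to 103.7 CPM with HMBA and 34.7 to 65.1 without, 3 of the 5 tested were called higher and 0 lower, and VIM stayed at 2.84 to 8.25 CPM in the 9 libraries. The most abundant were COL1A1 (mean 43.1 CPM with HMBA, 19.4 without) and FN1 (34.6 and 27.7). Summed epithelial markers overlapped, at 4656 to 7839 CPM with HMBA and 4531 to 5945 without. Of the 8 tested, 1 was called higher (CDH1, at 1.06) and 2 lower (KRT18 at -0.53 and CDX2 at -1.68). The part of these markers in the members' changes was not tested.

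**Figure D3:**
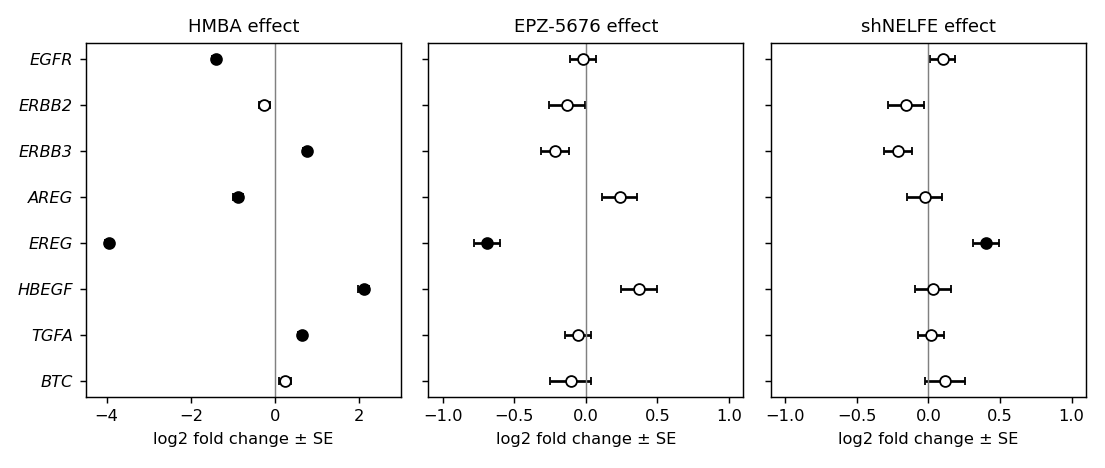
Fitted log2 fold change with its standard error for the 8 members tested, for HMBA, EPZ-5676 and shNELFE over the 9 libraries. Filled points passed the test (edgeR adjusted p under 0.05): 6 members for HMBA, and EREG alone for EPZ-5676 (-0.69) and for shNELFE (0.40). The scale of the HMBA panel differs from the others.

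With EPZ-5676, EREG was the member called: it was lower in all 4 pairs of groups that differ only in that compound. In shCTL it went from 743 to 447 CPM, and in shNELFE from 878 to 562 CPM. On top of HMBA it went from 40.6 to 28.9 CPM in shCTL and from 66.9 to 36.9 CPM in shNELFE, the latter the mean of 2 libraries. The change held its direction at both the high and the low level, with log2 ratios of -0.73, -0.64, -0.49 and -0.86. The fitted value was -0.69 (SE 0.09, 1.62-fold lower, edgeR adjusted p = 0.0133), and 120 genes had a more negative one. Of all genes tested, 0.134% were called lower and 0.0671% higher with EPZ-5676, and of the 8 members 1 was lower and 0 higher. The call did not hold when any of 5 libraries was left out: replicate 2 of shCTL with DMSO, shNELFE with DMSO, shCTL with EPZ-5676, shNELFE with EPZ-5676 or shNELFE with HMBA (edgeR adjusted p from 0.0774 to 0.136). The value then stayed between -0.73 and -0.61. With all 16 libraries it was -0.43 with an edgeR adjusted p = 1, and with a replicate block added to that fit it turned to 1.66 (adjusted p = 1).

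HBEGF was higher in all 4 pairs of group means with EPZ-5676, at log2 ratios of 0.54, 0.53, 0.26 and 0.21, but did not pass the test (0.37, SE 0.13, 95% interval 0.09 to 0.65, edgeR adjusted p = 0.284). The last pair set a mean of 2 libraries, 96.6 (replicate 1) and 67.6 CPM (replicate 2), against 71.3 CPM in shNELFE with HMBA. Replicate 2 alone was thus lower with EPZ-5676. ERBB2 and ERBB3 were lower in all 4 pairs of group means and did not pass the test either, at -0.13 (95% interval -0.41 to 0.14) and -0.22 (-0.43 to 0.00) on the log2 scale. For ERBB2 the shNELFE libraries with both compounds were at 69.1 (replicate 1) and 44.2 CPM (replicate 2), against 59.4 with HMBA alone. EGFR (-0.02, 95% interval -0.22 to 0.18) and TGFA (-0.05, -0.26 to 0.15) had values near 0. BTC had -0.11 (-0.42 to 0.21).

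AREG did not follow EREG with EPZ-5676. Without HMBA its log2 ratio was -0.15 in shCTL and -0.01 in shNELFE, and with HMBA it was 0.68 and 0.40, so that the additive fit gave 0.24 (SE 0.12, edgeR adjusted p = 0.516). The test of the difference itself, whether the HMBA change of AREG differs with EPZ-5676, gave 0.60 (SE 0.17, 95% interval 0.21 to 0.99). Its unadjusted p from edgeR was 0.00708 and its adjusted p = 1, so it did not pass over all genes.

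**Figure D4:**
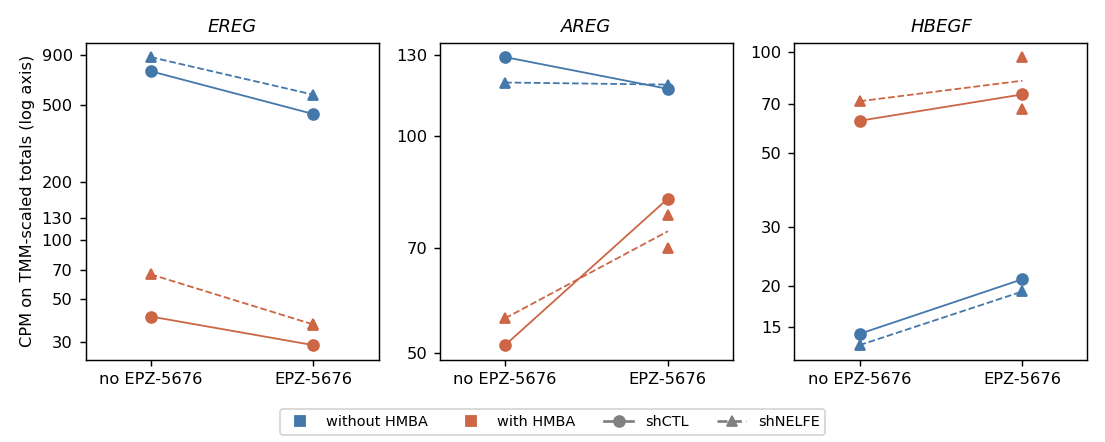
CPM (log axes, each panel with its own range) of EREG, AREG and HBEGF without and with EPZ-5676. Points are the 9 libraries, lines join group means, colour marks HMBA and shape and line style mark the shRNA. EREG is lower with EPZ-5676 along all 4 lines, HBEGF is higher along all 4, and AREG is higher only along the 2 lines with HMBA.

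With shNELFE, EREG was again the member called. It was higher than in shCTL in all 4 pairs, at log2 ratios of 0.24 with DMSO, 0.33 with EPZ-5676, 0.72 with HMBA and 0.35 with both compounds. The fitted value was 0.40 (SE 0.09, 1.32-fold higher, edgeR adjusted p = 0.0462), and 1081 genes had a more positive one. Of all genes tested, 0.764% were called higher and 1.60% lower with shNELFE, and of the 8 members 1 was higher and 0 lower. This call lay close to the threshold. It held when replicate 1 of shNELFE with both compounds was left out (edgeR adjusted p = 0.00336), did not hold when any of the other 8 libraries was left out (0.0588 to 0.215) or with unscaled totals (0.0608), and was at 0.66 with an adjusted p = 1 in all 16 libraries (2.59 with an adjusted p = 0.949 with a replicate block).

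The 7 other members tested did not pass for shNELFE in the 9 libraries. Their values ran from -0.21 for ERBB3 (95% interval -0.43 to 0.01) to 0.12 for BTC (-0.20 to 0.43). EGFR was at 0.10 (-0.10 to 0.30), AREG at -0.03 (-0.30 to 0.24), HBEGF at 0.03 (-0.25 to 0.31) and TGFA at 0.02 (-0.18 to 0.22). ERBB2 was lower in all 4 pairs of group means, with a fitted value of -0.15 (-0.43 to 0.12). With both compounds the means were nearly equal, and the shNELFE libraries stood at 69.1 (replicate 1) and 44.2 CPM (replicate 2), against 56.9 in shCTL. ERBB2 was called without replicate 1 of shNELFE with both compounds (-0.26, edgeR adjusted p = 0.0242) and with a replicate block in the 9 libraries (-0.26, edgeR adjusted p = 0.0252).

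Whether the HMBA change differed between shRNAs or with EPZ-5676, and whether the EPZ-5676 change differed between shRNAs, was tested for each gene with a product term. Of the 8 members, 0 were called by edgeR in any of these 3 tests. Of all genes, 0.0134%, 0% and 0% were called, with 623, 385 and 114 genes at an unadjusted p under 0.05. DESeq2 called 23, 1 and 3 genes and limma-voom called 2, 0 and 0, none of them a member. The HMBA change of EREG was 0.23 less negative in shNELFE (SE 0.17, 95% interval -0.16 to 0.61) and that of ERBB3 differed by -0.35 (SE 0.17, -0.74 to 0.03). With 4 residual degrees of freedom these intervals are wide, and any difference within them is compatible with the data.

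The other ligands of the family were scarce. Of EGF and NRG1 to NRG4, NRG1 alone had enough counts to be tested: it stood at 2.70 CPM ± 1.33 (SD, n = 4) without HMBA and 0.980 ± 0.284 (SD, n = 5) with it, a change of -1.54 (SE 0.24, edgeR adjusted p = 0.000162). NRG1 encodes neuregulin 1, a ligand of ERBB3 and ERBB4, and was called higher with shNELFE at 1.03 (edgeR adjusted p = 0.0496), a call lost when any of the libraries other than replicate 1 of shNELFE with both compounds was left out. Of 8 genes of ligand release, 6 were tested and 1 was called for HMBA, against 31.0% of all genes called higher and 32.0% lower. It was RHBDF1, which encodes the iRhom1 partner of the sheddase ADAM17 and rose by 0.48 (SE 0.13, edgeR adjusted p = 0.00886). ADAM17 itself was at 50.4 CPM ± 4.31 (SD, n = 5) with HMBA and 49.7 ± 5.09 (SD, n = 4) without.

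Downstream of the receptors, 24 adaptor and effector genes were tested, and with HMBA 8 rose, 8 fell and 8 did not pass, with a median of -0.01 beside 0.02 for all genes. That share, and the counts of the lists that follow, are to be read against the 31.0% of all genes called higher and 32.0% called lower. PIK3R1, the regulatory subunit of PI3K, rose by 1.78 (SE 0.11) and the docking protein GAB1 by 0.95 (SE 0.28). The kinase BRAF fell by 0.91 (SE 0.17) and NRAS fell by 0.81 (SE 0.08). Of 22 inhibitors, 5 rose and 9 fell (median -0.18): LRIG1, which limits receptor levels, rose by 1.99 (SE 0.33) and its relative LRIG3 fell by 3.16 (SE 0.21), while SPRED3 rose by 1.35 (SE 0.30) and SOCS5 fell by 1.43 (SE 0.14). The list therefore did not move as a block.

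Of 19 genes known to be transcribed downstream of ERK, 7 rose and 8 fell with HMBA (median -0.07). FOS rose by 4.22 (SE 0.31, edgeR adjusted p = 1.97e-06) and EGR1 by 2.96 (SE 0.14, edgeR adjusted p = 8.37e-08), both immediate early transcription factors. MYC fell by 3.98 (SE 0.20, edgeR adjusted p = 1.02e-07), about as far as EREG on the log2 scale, and the AP-1 member FOSL1 fell by 1.19 (SE 0.07). Of 17 genes of receptor endocytosis and degradation, 7 rose and 0 fell (median 0.22), among them the adaptor GRB2, at 0.85 (SE 0.07), and the clathrin light chain CLTA, at 0.45 (SE 0.09). With unscaled totals the counts of this last list were 1 higher and 4 lower, so its direction rests on the scaling. 

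Over all genes, 0.0671% were called higher and 0.134% lower with EPZ-5676, and 0.764% and 1.60% with shNELFE, so few calls are a property of all genes and not of these lists. With EPZ-5676, 0 of the adaptor, inhibitor, ligand release and endocytosis genes were called, and of the ERK output genes 1 was, FOSL1, at -0.49 (edgeR adjusted p = 0.0408). With shNELFE, 1 adaptor or effector gene was lower, STAT3 at -0.84 (edgeR adjusted p = 0.00435). Of the inhibitors 2 were lower and 0 higher, SH3KBP1 at -0.44 and RASA1 at -0.73. Of the ERK output genes 1 was higher, the cyclin gene CCND1 at 0.52 (edgeR adjusted p = 0.0310), and of the endocytosis genes 1 was higher, AP2B1 at 0.36, and 1 lower, EPS15 at -0.42.

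The genes whose log2 levels followed those of a member most closely over the 9 libraries are given as a description, since the libraries share HMBA. For EREG they were MTAP (r = 0.997), MTUS1 (0.996) and KLHL23 (0.996), and 1908 of 11744 genes had r above 0.9. For HBEGF they were ARID5A (0.996), MT2A (0.995) and RPL23 (0.994), for EGFR ERVMER34-1, KLHL42 and TBC1D30 (all 0.997), and for ERBB3 CCNDBP1 (0.977), MICA (0.976) and ADIPOR2 (0.975).

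The family looked different in the 7 replicate 1 libraries that stand apart, here on totals scaled over all 16. EREG had 0 to 3 counts in each of them, 0 to 0.148 CPM, against 28.6 to 870 CPM in the 9. AREG stood at 0.723 to 9.98 CPM against 50.4 to 126, TGFA at 1.94 to 21.4 against 51.4 to 91.6, and BTC at 0.103 to 0.436 against 3.66 to 5.09. These 4 ligands were lower in every one of the 7 than in every one of the 9. ERBB2 (144 to 185 CPM against 43.2 to 83.0) and ERBB3 (106 to 260 against 24.4 to 58.7) were higher in all 7. Of the 15853 genes that passed the filter on low counts over 16 libraries, 14.5% lay higher in all 7 than in all 9 and 15.9% lay lower, against 2 and 4 of the 9 members that passed.

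Within the 7, EGFR and ERBB4 separated the libraries. Those labelled shCTL with DMSO and shCTL with both compounds, whose levels correlated at r = 0.991, held 208 and 172 CPM of EGFR, 32.6 and 32.2 of HBEGF, and 0.207 and 0.102 of ERBB4. The other 5 held 1.06 to 4.47 CPM of EGFR, 0.795 to 2.23 of HBEGF and 6.44 to 20.6 of ERBB4. Among them, those labelled shNELFE with DMSO and shCTL with HMBA (r = 0.992) held 1.94 and 2.22 CPM of TGFA. Their ERBB4 was at 6.44 and 8.25 CPM. The libraries labelled shCTL with EPZ-5676, shNELFE with EPZ-5676 and shNELFE with HMBA correlated at r = 0.991 to 0.992. These held 18.1 to 21.4 CPM of TGFA and 18.9 to 20.6 of ERBB4. ERBB4 reached 417 counts in the library labelled shNELFE with HMBA, against at most 4 counts in any of the 9. Since NELFE or HEXIM1 went against the label in 5 of these libraries and all 7 stood apart from the 9, no effect of an shRNA or a compound is read from them.

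**Figure D5:**
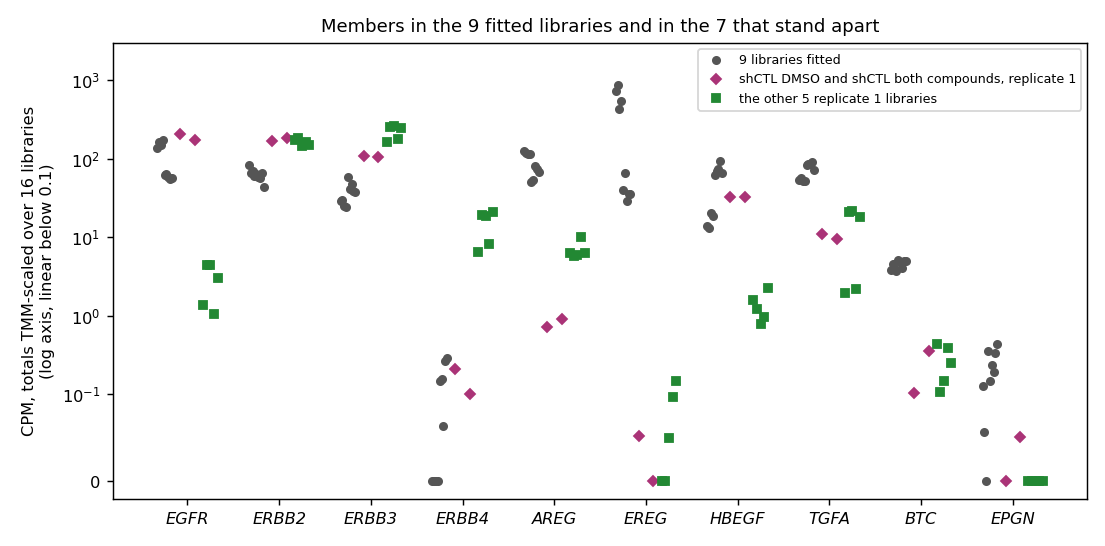
CPM of the 10 members in all 16 libraries, on a log axis that is linear below 0.1. Circles are the 9 libraries used in the tests, diamonds the libraries labelled shCTL DMSO and shCTL both compounds replicate 1, and squares the other 5. EREG lies at 0 to 0.148 CPM in the 7, and ERBB2 and ERBB3 lie above the 9 in all 7.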

How the data were processed

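The deposited table gives, for 60676 Ensembl identifiers, raw counts of reads per gene in 16 libraries, as the authors made them. Libraries were built from poly(A) RNA with the TruSeq Stranded mRNA kit, per the labels. STAR 2.4.0b, Cufflinks 2.1.1, HTSeq 0.6.1p1, edgeR and hg38 appear in the submitters' processing notes without a role. Which annotation and which strand option the counting used is not given in the sources used here. Identifiers were matched to symbols (42009 matched), and positions come from GENCODE release 29 on hg38.

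Counts of 9 libraries were fitted with edgeR 4.0.16 (R 4.3.3) by the quasi-likelihood F-test, with TMM scaling, filterByExpr, and shRNA, EPZ-5676 and HMBA as additive terms. This left 14912 genes, 8 of the 10 members and 5 residual degrees of freedom, and with 1 library in most groups the spread comes from the additive fit. Each product term was added alone. P-values were adjusted over all genes by Benjamini-Hochberg, with a threshold of 0.05. The scripts were tested on simulated data. DESeq2 1.42.0, limma-voom 3.58.1, RLE scaling, unscaled totals, no filter on low counts, replicate 2 alone, all 16 libraries with and without a replicate block, and leaving out each library were the alternatives. A replicate block in the 9 libraries was added after seeing the data.

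The members, the 9 libraries and the gene lists were chosen with earlier results of these data known. All members are named, and from each list the 2 largest called rises and falls with HMBA among genes whose arm with the higher mean reached 2 CPM, and the 3 genes with the highest r to each of the 4 members with the smallest HMBA p. Genes of the lists called for EPZ-5676 or shNELFE were named after their values were seen. Planned protein comparisons were not made. No 2 libraries held identical counts.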

Additional observations from a re-analysis of the deposited data

Results flagged for a closer look

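The 7 replicate 1 libraries outside the tests held signal of the receptors that the comparisons did not use. On totals scaled over all 16 libraries, the highest level among the 7 was 208 CPM for EGFR, in the library labelled shCTL with DMSO, against at most 174 in the 9 libraries tested. It was 185 CPM for ERBB2, in that labelled shCTL with EPZ-5676, against at most 83.0. For ERBB3 it was 260 CPM, in that labelled shNELFE with EPZ-5676, against at most 58.7. For ERBB4 it was 20.6 CPM, in that labelled shNELFE with HMBA, against at most 0.289. Marker genes differed as well. VIM ran from 0.106 to 1999 CPM in the 7 against 2.84 to 8.25 in the 9, and FN1 from 4.24 to 4740 against 19.1 to 45.6. KRT18 was at 3196 to 7823 CPM against 535 to 1270, and CDH1 at 0.102 to 1592 against 78.0 to 204. COL1A2 was at most 0.0530 CPM in the 7 and 0.0723 in the 9. What these libraries contain was not tested.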

How the results depend on the processing

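The 6 calls for HMBA kept their direction and stayed under the threshold in the 9 fits that left out a library and under RLE scaling, unscaled totals, no filter, DESeq2, limma-voom and the 8 libraries numbered 2, with EREG between -4.21 and -3.86, HBEGF between 1.84 and 2.19 and EGFR between -1.66 and -1.32. Members called for shNELFE ranged from 0 to 2 and for EPZ-5676 from 0 to 1 when a library was left out. For shNELFE they were 0 with unscaled totals and 2 in the 8 libraries numbered 2, the fit that leaves out replicate 1 of shNELFE with both compounds. Changes of sign outside the fits of all 16 libraries were of members not called: for shNELFE, HBEGF and TGFA at -0.04 with unscaled totals and at -0.03 in the 8 libraries, for EPZ-5676 EGFR at 0.01 in the 8, and for HMBA BTC at -0.01 with unscaled totals. Leaving out a library moved AREG between -0.13 and 0.09, HBEGF between -0.04 and 0.10 and TGFA between -0.03 and 0.06 for shNELFE, and EGFR between -0.08 and 0.03 for EPZ-5676. Genes called over all genes for shNELFE, EPZ-5676 and HMBA were 353, 30 and 9392, against 919, 235 and 9293 by DESeq2, 767, 248 and 10091 without a filter, and 1940, 563 and 10443 in the 8 libraries. Leaving out another library gave 66 to 347 for shNELFE and 1 to 18 for EPZ-5676. The cause of these differences was not tested.

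With all 16 libraries, 0 members and 0 genes were called for shNELFE, EPZ-5676 or HMBA, and these members changed sign: for shNELFE EGFR (-0.64), ERBB3 (0.03), AREG (0.22) and HBEGF (-0.31), for EPZ-5676 EGFR (0.39), TGFA (0.32) and BTC (0.11), and for HMBA ERBB3 (-0.30). With a replicate block by number added, 0 were again called. In that block fit these changed sign: for shNELFE EGFR (-1.18), AREG (0.95) and HBEGF (-0.44), for EPZ-5676 EGFR (0.59), EREG (1.66), TGFA (0.90) and BTC (0.59), and for HMBA AREG (0.50), with EREG for HMBA at -0.57 (edgeR adjusted p = 0.943). The labels do not say that a number marks a shared culture. A replicate block in the 9 libraries, added after seeing the data, takes up the 1 library numbered 1 and so gives nearly the values of the 8 libraries numbered 2: 2 members were called for shNELFE, ERBB2 was called for shNELFE and HMBA, the uncalled HBEGF and TGFA for shNELFE stood at -0.03 and EGFR for EPZ-5676 at 0.01, and over all genes 1920, 577 and 10718 of 15573 were called for shNELFE, EPZ-5676 and HMBA. Depth limits BTC, ERBB4 and EPGN, which had at most 81, 4 and 6 counts in a library of the 9.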
